A study of Mus musculus with 17 samples.

Results

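Endothelial identity and leukocyte adhesion were followed through 10 genes of the mouse heart: Pecam1, Cdh5, Eng, Icam1, Icam2, Vcam1, Sele, Selp, Vwf and Plvap. They were chosen by name as a functional group, and each of the 10 had a feature of its own among the 31647 features of the count table. The comparison was between 8 sham hearts and 9 infarct zones (IZ), each from a different male C57BL/6J wild-type mouse aged 8 to 11 weeks at surgery and examined 5 days later. In the IZ group the left anterior descending coronary artery was ligated permanently and the infarcted part of the left ventricle (LV) was dissected, whereas sham mice had the same operation without ligation and gave LV tissue. Transcripts were measured by massive analysis of cDNA ends (MACE), which sequences the 3′ end of polyadenylated RNA and counts molecules through unique identifiers. The ligated artery is never reopened in this model, so the IZ was not reperfused, and each sample held all cell types of the dissected tissue.

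Endothelial cells line every vessel of the heart and are held together by VE-cadherin (Cdh5) and PECAM-1 (Pecam1). When tissue is inflamed, they display selectins, on which leukocytes roll, and the immunoglobulin-type receptors ICAM-1 and VCAM-1, which leukocyte integrins grip before the cells pass through the vessel wall. P-selectin (Selp) is stored in Weibel-Palade bodies beside von Willebrand factor (Vwf). E-selectin (Sele), ICAM-1 and VCAM-1 are induced largely by new transcription under cytokines such as TNF and interleukin-1.

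Sham libraries held 1820809 to 4257919 counts and IZ libraries 1237675 to 4738307. Mitochondrially encoded transcripts took 22.9 to 32.4% of the counts in sham and 4.22 to 19.5% in the IZ, where replicate 1 had the highest share and the other 8 lay between 4.22 and 6.78%. The 8 cardiomyocyte markers together reached 59887 to 71500 CPM in sham and 2731 to 26600 CPM in the IZ, with IZ replicate 1 again the highest. CPM values relate counts to library sizes corrected with TMM factors (the trimmed mean of M values), a scaling that sets the bulk of the genes to a common level.

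The reference table of promoters held 4 of the 10 genes, and the 3 leukocyte adhesion genes among them are shown. Each run covers 250 bases before the RefSeq start and the first 30 bases after it (GRCm38.p6, plus strand), at chr9:21015690-21015969 for Icam1, chr1:164115014-164115293 for Selp and chr1:164047984-164048263 for Sele. Capitals mark TATAAA (the TATA box) and AGGAAG (a core bound by ETS factors), the latter also as CTTCCT where it lies on the minus strand.
Icam1: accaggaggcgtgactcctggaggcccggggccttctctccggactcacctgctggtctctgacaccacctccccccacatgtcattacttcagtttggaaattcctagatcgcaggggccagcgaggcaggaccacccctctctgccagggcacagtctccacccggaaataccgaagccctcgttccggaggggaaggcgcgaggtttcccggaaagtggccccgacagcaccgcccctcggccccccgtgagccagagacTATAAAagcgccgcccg
Selp: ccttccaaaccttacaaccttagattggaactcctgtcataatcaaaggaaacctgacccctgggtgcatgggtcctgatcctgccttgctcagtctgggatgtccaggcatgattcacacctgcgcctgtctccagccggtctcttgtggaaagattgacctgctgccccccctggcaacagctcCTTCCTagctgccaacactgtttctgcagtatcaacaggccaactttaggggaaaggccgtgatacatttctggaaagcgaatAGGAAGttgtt
Sele: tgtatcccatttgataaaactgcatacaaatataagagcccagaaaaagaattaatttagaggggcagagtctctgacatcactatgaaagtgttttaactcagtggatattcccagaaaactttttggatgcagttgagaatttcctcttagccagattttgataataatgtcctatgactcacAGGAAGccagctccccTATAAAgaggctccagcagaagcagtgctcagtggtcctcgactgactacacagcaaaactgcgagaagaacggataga
TATAAA stood 49 bases before the annotated start of Sele and 32 bases before the GENCODE start of Icam1, whose RefSeq start lies upstream of the motif. It was in 13.6% of all 32851 promoters of this length (250 bases before to 50 after the start, both strands). AGGAAG was in the promoters of Sele, Selp and Eng but not of Icam1, and in 35.4% of all promoters. The NF-kappaB consensus was searched only as GGGRNWYYCC (R is A or G, N any base, W is A or T, Y is C or T). This exact pattern was found in none of the 4 promoters and in 4.51% of all. Near matches, such as tggaaattcc in Icam1 and ggatattccc in Sele, were not counted. The result therefore says only that this exact pattern was not in this window, not that NF-kappaB sites were absent.

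Under TMM scaling, 8 of the 10 genes passed the filter on low counts and were tested across all genes. Plvap and Icam1 rose in the IZ and Vcam1 fell, while Pecam1, Cdh5, Eng, Icam2 and Vwf did not pass the test. These are 2 genes called higher and 1 called lower by edgeR's quasi-likelihood test at a Benjamini-Hochberg adjusted p of 0.05, in a comparison where 69.5% of the 12301 genes tested were called, 36.3% higher and 33.1% lower. The median log2 fold change was -0.18 over the 8 genes and 0.05 over all genes tested. Selp and Sele had too few counts for the filter and are described by their counts.

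**Figure D1:**
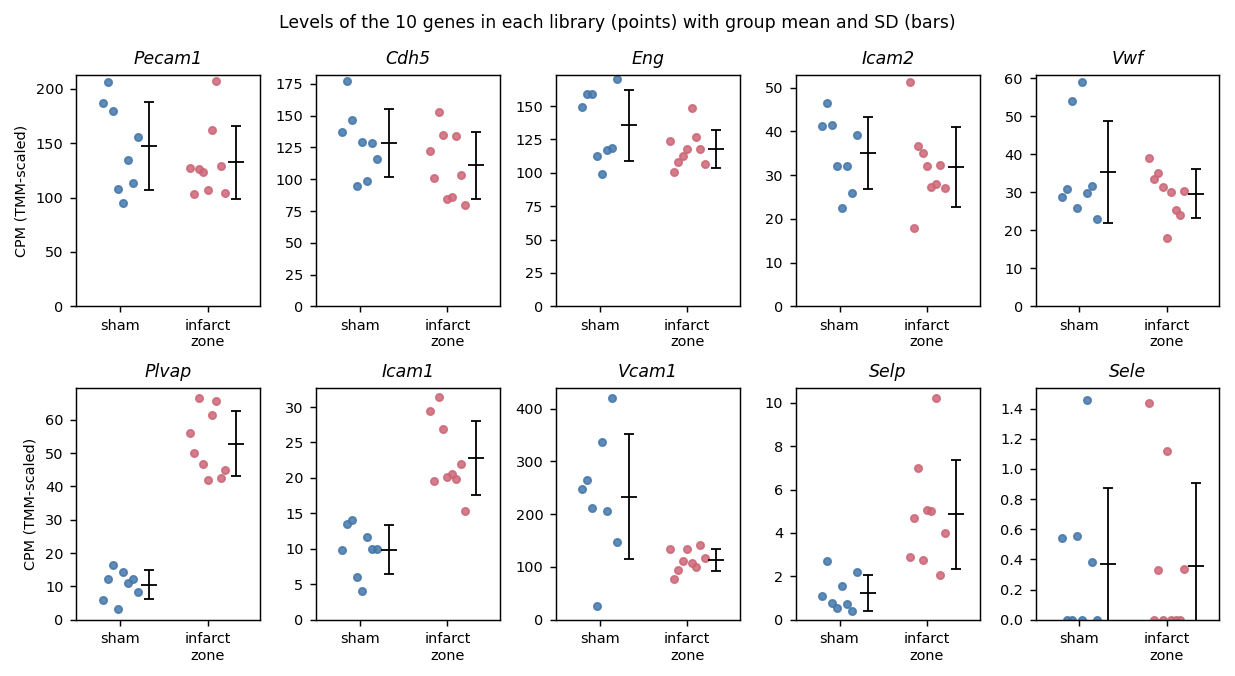
CPM of the 10 genes (vertical axes, linear from 0, a scale for each gene) in the 8 sham (blue) and 9 IZ libraries (red), with the group mean and SD as black bars. All 9 IZ points of Plvap and Icam1 lie above the sham points, those of Pecam1, Cdh5, Eng, Icam2 and Vwf overlap the sham range (3 of 9 IZ points of Cdh5 lie below it), and Vcam1 shows 1 sham point at 26.5 CPM below every IZ point.

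None of the 5 genes that mark endothelium in general, Cdh5, Pecam1, Eng, Icam2 and Vwf, passed the test under TMM scaling. Cdh5 (chr8:104101625-104144511), the adhesion protein of endothelial junctions, ran from 94.996 to 177 CPM in sham (median 129) and from 79.7 to 153 CPM in the IZ (median 103). The groups overlapped, although 3 of 9 IZ libraries lay below every sham library. Sham averaged 128 ± 26.7 CPM (SD, n = 8) and the IZ 111 ± 26.3 CPM (SD, n = 9), so the log2 fold change was -0.21 (standard error, SE, 0.15, edgeR adjusted p = 0.223). Because whole tissue was measured, fewer endothelial cells and less RNA per endothelial cell cannot be told apart here or for any gene below.

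Pecam1 (chr11:106654217-106750628), which encodes the platelet and endothelial cell adhesion molecule, ran from 95.4 to 206 CPM in sham (median 145) and from 103 to 207 CPM in the IZ (median 126). The ranges were nearly the same, and 1 IZ library lay above all sham libraries. Its log2 fold change was -0.16 (SE 0.17, edgeR adjusted p = 0.414), from means of 147 ± 40.7 CPM and 132 ± 33.4 CPM. Pecam1 is also expressed by platelets and leukocytes, and macrophage markers were higher in the IZ: the sum of 10 macrophage markers ran from 411 to 591 CPM in sham and from 2263 to 5743 CPM in the IZ, all 10 called higher. Their part in the level of Pecam1 was not tested.

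Eng (chr2:32646595-32682669), which encodes endoglin, a co-receptor for TGF-beta and BMP ligands, ran from 99.0 to 170.0 CPM in sham (median 134) and from 100.3 to 148 CPM in the IZ (median 118). No IZ library lay outside the sham range. The means, 136 ± 26.7 CPM in sham and 118 ± 14.1 CPM in the IZ, differed by -0.20 on the log2 scale (SE 0.12, edgeR adjusted p = 0.143). The 3′ end of Eng overlaps Fpgs on the opposite strand by 61 bases, with Fpgs at 3 to 17 counts per sham library and 10 to 73 per IZ library, against 161 to 311 and 210 to 728 for Eng. Whether the counting kept the strands apart is not given in the sources used here.

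Icam2 (chr11:106377656-106388075), the constitutively expressed ICAM of resting endothelium, ran from 22.6 to 46.4 CPM in sham (median 35.6) and from 17.9 to 51.3 CPM in the IZ (median 32.0). Both the lowest and the highest library were IZ libraries. The log2 fold change was -0.13 (SE 0.18, edgeR adjusted p = 0.527), from means of 35.1 ± 8.30 CPM and 31.9 ± 9.11 CPM. It shares the integrin partner LFA-1 with Icam1.

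Vwf (chr6:125546774-125686679), which encodes the platelet-binding protein stored in Weibel-Palade bodies, ran from 23.1 to 59.0 CPM in sham (median 30.4) and from 18.0 to 39.1 CPM in the IZ (median 30.5). The medians were close, and the higher sham mean came with 2 sham libraries above 50 CPM. The means of 35.4 ± 13.4 CPM and 29.7 ± 6.38 CPM gave a log2 fold change of -0.23 (SE 0.18, edgeR adjusted p = 0.268). A p that misses the threshold does not show that the levels of these 5 genes were equal.

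Plvap had the largest difference of the 8 tested genes. It encodes the protein of the diaphragms that close endothelial fenestrae and caveolae, and its gene lies at chr8:71497765-71511752. Plvap ran from 3.31 to 16.5 CPM in sham (median 11.5) and from 42.1 to 66.4 CPM in the IZ (median 50.04). The lowest IZ library was thus above the highest sham library. The mean rose from 10.4 ± 4.37 CPM (SD, n = 8) to 52.9 ± 9.76 CPM (SD, n = 9), a 5.11-fold difference (log2 fold change 2.35, SE 0.20, edgeR adjusted p = 5.92e-10). Of all genes tested, 16.6% had every IZ library above every sham library, and 19.3% were called higher by at least 2-fold. Gtpbp3, which overlaps the 3′ end of Plvap on the opposite strand by 1819 bases, showed 13 to 30 counts per sham library and 13 to 64 per IZ library, while Plvap had 6 to 32 and 75 to 407.

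Icam1 (chr9:21015985-21028817), the endothelial and leukocyte receptor for the integrins LFA-1 and Mac-1, ran from 4.10 to 14.1 CPM in sham (median 9.91) and from 15.4 to 31.3 CPM in the IZ (median 20.5). All 9 IZ libraries lay above all 8 sham libraries. The mean rose from 9.87 ± 3.42 CPM to 22.8 ± 5.24 CPM, 2.37-fold (log2 fold change 1.25, SE 0.20, edgeR adjusted p = 8.69e-06). Icam1 is expressed by macrophages as well as endothelium, and 9 of the 10 macrophage markers above were higher in every IZ library than in every sham library, the exception being Mrc1 (8 of 9 IZ libraries above sham). Their part in this result was not tested. Gm47079, an antisense gene over 511 bases at the 3′ end of Icam1, was not among the features used here.

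Vcam1 (chr3:116109949-116129688), the receptor for the leukocyte integrin VLA-4, was the gene of the set that fell under TMM scaling, with a wide spread between sham hearts. It stood at 26.5 CPM in sham replicate 4, at 147 CPM in replicate 8, between 205 and 338 CPM in 5 others and at 419.7 CPM in replicate 7. In the IZ it ran from 77.9 to 142 CPM (median 111). Thus 7 of 8 sham libraries lay above every IZ library and sham replicate 4 lay below every IZ library, so the groups overlapped. The mean fell from 233 ± 118 CPM to 113 ± 21.0 CPM, a 2.07-fold difference (log2 fold change -1.05, SE 0.29, edgeR adjusted p = 0.00264). Of all genes tested, 18.3% were called lower by at least 2-fold.

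Without sham replicate 4, the sham libraries of Vcam1 spanned 147 to 419.7 CPM and no longer overlapped the IZ, a full separation seen with all libraries for 16.5% of genes in that direction. The log2 fold change was then -1.23 (SE 0.18, edgeR adjusted p = 2.92e-06), and the sham mean was 262 ± 90.9 CPM (SD, n = 7). Sham replicate 4 was not set apart over the genes as a whole. Among the 9315 tested genes that averaged 10 CPM or more, it was on the log2 CPM scale the lowest sham library by a wide gap (over 0.526 of the group's range) for 55, against 17 to 86 for the other sham libraries. On the CPM scale the gap of Vcam1 was 0.308 of the range, which is below that limit. On the log2 scale, those 55 included among the listed genes Vcam1, the arterial connexin gene Gja4 (4.97 CPM, others at least 8.63 CPM) and the smooth muscle myosin gene Myh11 (9.39 CPM, others at least 21.8 CPM).

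The genes whose deviations from the group means were most like those of Vcam1 over the 17 libraries, among 9295 genes, were Scarf2 (Pearson r = 0.90), Fam107b (r = 0.89) and Eva1c (r = 0.86). These correlations share library and depth and are descriptions. Each of the 3 was lowest in sham replicate 4, which the choice itself favoured, because Vcam1 deviated most there. Scarf2 stood at 2.76 CPM against at least 7.70 CPM in the other sham libraries, and Eva1c at 3.31 against at least 9.90 CPM. Fam107b stood at 0.552 against at least 3.64 CPM, below the floor of 1.66 CPM that 3 counts set in sham replicate 4. Their group differences did not follow Vcam1: Scarf2 rose with a log2 fold change of 1.94 and Fam107b with 1.85, whereas Eva1c fell by 1.52 on the log2 scale (edgeR adjusted p = 2.51e-08, 6.14e-07 and 4.68e-05).

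**Figure D2:**
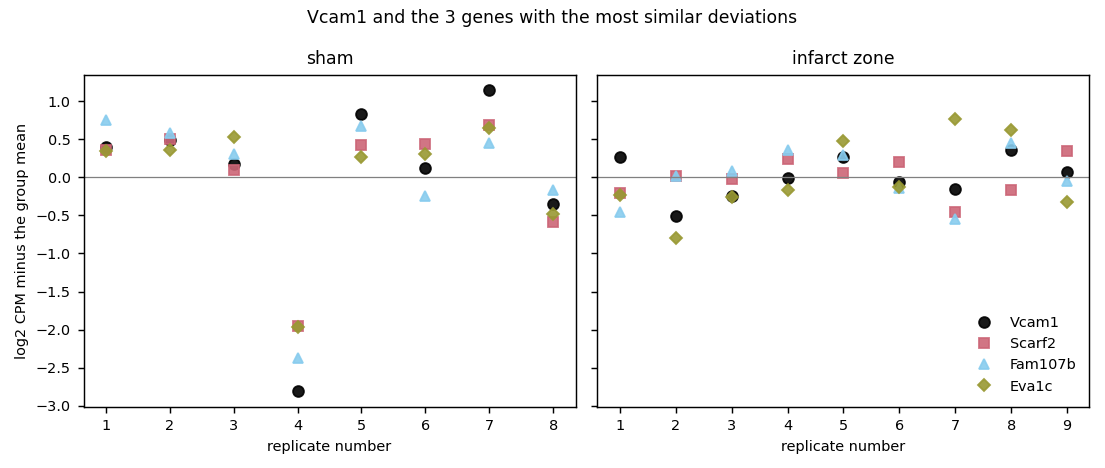
Log2 CPM minus the group mean (vertical axis) of Vcam1, Scarf2, Fam107b and Eva1c by replicate number (horizontal axis) in sham (left) and IZ (right). In sham all 4 genes are lowest in replicate 4, where Vcam1 was at 26.5 CPM, while the IZ libraries lie closer together. The other genes were chosen for deviations like those of Vcam1, which favours a low value in that library.

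Selp and Sele lie next to each other on chromosome 1, at chr1:164115264-164150026 and chr1:164048234-164057677, with 57586 bases between them. Selp had 1 to 4 counts in each sham library (17 in all) and 4 to 43 in each IZ library (157 in all). Scaled, it ran from 0.382 to 2.69 CPM in sham (median 0.934) and from 2.05 to 10.2 CPM in the IZ (median 4.69), and 8 of 9 IZ libraries lay above every sham library. The ratio of the summed counts, scaled by library size, was 4.01 with an exact 95% interval of 2.43 to 7.06 that covers counting error only. An exact two-sided permutation test over the 17 libraries (24310 arrangements), chosen after seeing the data, gave p = 0.000329 for the difference in mean log2 CPM, 1.72. With no filter on low counts, edgeR gave Selp a log2 fold change of 2.005 (SE 0.43, adjusted p = 0.000146).

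P-selectin is also made by megakaryocytes and platelets. Of 8 platelet markers 2 could be tested and both were called higher, Pf4 with a log2 fold change of 2.20 and Gp1bb with 3.34 (edgeR adjusted p = 8.18e-07 and 5.84e-07). The sum of the 8 markers ran from 29.7 to 57.1 CPM in sham and from 49.9 to 358 CPM in the IZ, most of it Pf4, which macrophages also express. The platelet receptor gene Gp1ba had counts in 8 of 8 sham libraries and 4 of 9 IZ libraries, and Gp6 in 3 and 2. Their part in the level of Selp was not tested.

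Sele was close to the limit of detection. It had 0 to 2 counts per library in sham (5 in all, from 4 libraries) and 0 to 4 in the IZ (9 in all, from 4 libraries). A count of 3 in a library corresponded to 1.15 to 2.35 CPM in sham and 0.414 to 1.68 CPM in the IZ, and the groups overlapped wholly. The ratio of the summed counts was 0.782, with an interval from 0.235 to 2.97, so a difference within that interval was not detectable at this depth. Single libraries moved the group means: the mean of 0.367 CPM in sham was 0.211 CPM without replicate 6, and the mean of 0.358 CPM in the IZ was 0.223 CPM without replicate 1. The exact permutation test gave p = 0.846.

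A ratio of 2 genes within a library does not depend on how libraries are scaled, so each gene was also set against Cdh5 as log2 of (count + 0.5) over (Cdh5 count + 0.5). Relative to Cdh5, the other general endothelial genes lay close to their sham ratios: the mean IZ ratio minus the mean sham ratio was 0.08 for Pecam1, 0.03 for Eng, 0.07 for Icam2 and 0.01 for Vwf. The SDs of these ratios within a group ran from 0.29 to 0.47, larger than the differences. Over all other genes tested, the median difference relative to Cdh5 was 0.27.

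Plvap and Icam1 rose against Cdh5 as well. The log2 ratio of Plvap went from -3.70 ± 0.63 (SD, n = 8) to -1.05 ± 0.29 (SD, n = 9), which is 6.24-fold, and that of Icam1 from -3.73 ± 0.54 to -2.27 ± 0.22, which is 2.74-fold. Neither gene's groups overlapped, which held in that direction for 14.9% of the genes tested. The ratio of Selp was 1.97 higher on the log2 scale, with 8 of 9 IZ libraries above all sham libraries. For Vcam1 the ratio was 0.58 ± 1.08 in sham and 0.04 ± 0.49 in the IZ, and the groups overlapped, whereas 8.82% of genes lay lower against Cdh5 without overlap. The sham ratios of Vcam1 ran from -1.83 to 1.71 and those of the IZ from -0.70 to 0.66. The lowest was that of sham replicate 4 (48 counts of Vcam1, 172 of Cdh5), which pulled the sham mean down. The ratio was not examined without that library.

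**Figure D3:**
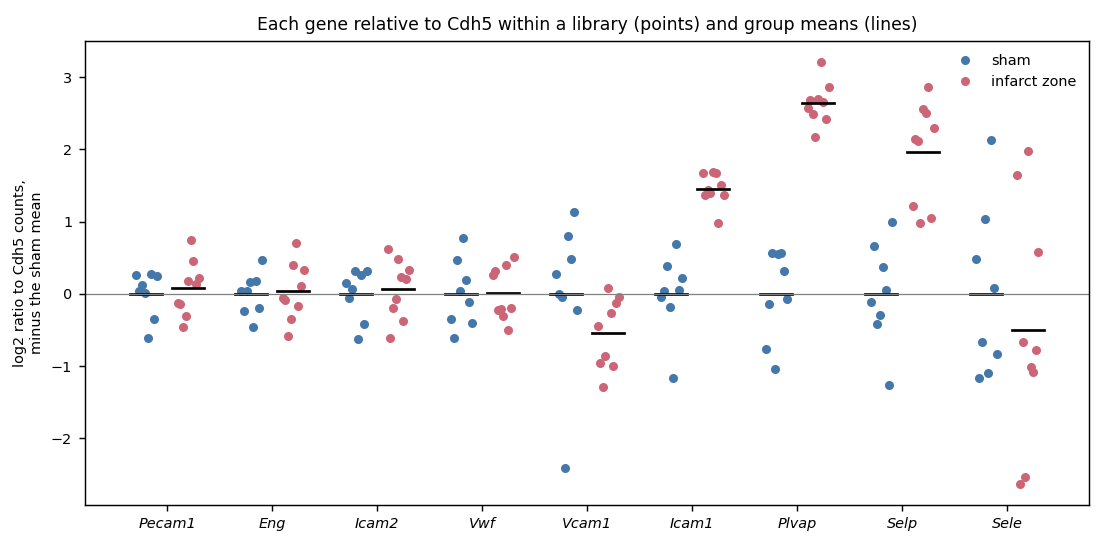
Log2 ratio of each gene's counts to those of Cdh5 in the same library, shifted so that the sham mean is 0 (vertical axis), for sham (blue) and IZ libraries (red), with group means as lines. Plvap (difference 2.64) and Icam1 (1.46) separate without overlap, Selp (1.97) overlaps in 1 IZ library, Pecam1, Eng, Icam2 and Vwf stay near 0, and Vcam1 and Sele overlap.

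The scaling decided the direction for 6 of the genes. Total counts alone, with no TMM factor, moved the median log2 fold change of all genes from 0.05 to 1.13. It called 10710 of the 12301 genes tested, 85.7% of these calls being higher, against 8544 calls and 52.3% under TMM. On that scale Pecam1 (0.91), Cdh5 (0.87), Eng (0.86), Icam2 (0.91) and Vwf (0.84) were called higher and Vcam1 stood at 0.030 (edgeR adjusted p = 0.918). Thus 7 of the 8 tested genes were called higher and 0 lower, on a scale where most genes tested were called higher. A change of scaling shifts all genes by nearly the same amount, and subtracting the median of all genes takes that shift out. Values relative to this median therefore had to stay nearly the same, and they do not tell which scaling is right. Cdh5 lay 0.26 below it under TMM and 0.26 below it under total counts, and Vcam1 1.10 below and 1.10 below. Icam1 lay 1.19 and 1.18 above, and Plvap 2.30 and 2.30 above. Plvap and Icam1 were called higher in each of the 26 alternatives run, total counts included.

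**Figure D4:**
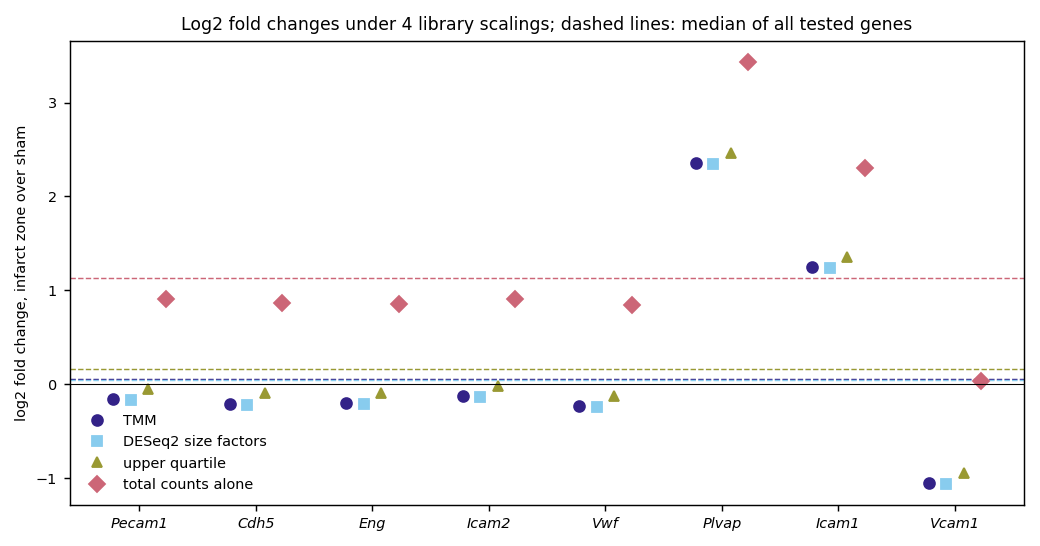
Log2 fold change of the 8 tested genes (vertical axis) with libraries scaled by TMM, by the size factors of DESeq2, by the upper quartile or by total counts alone, with the median of all 12301 genes for each scaling as a dashed line of the same colour. Pecam1, Cdh5, Eng, Icam2 and Vwf lie just below the line of each scaling, at -0.23 to -0.13 under TMM and at 0.84 to 0.91 under total counts, while Plvap and Icam1 lie above every line and Vcam1 below.

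Between hearts of the same group, the relation of each of the 7 other tested genes to Cdh5 was examined in sham and in the IZ, 14 relations in all, by exact permutation of the pairings. None passed a Benjamini-Hochberg adjusted p of 0.05. The closest was Icam1 in the IZ (n = 9), with r = 0.78 (exact permutation p = 0.0141, adjusted p = 0.197) and rho = 0.72 (p = 0.0369, adjusted p = 0.322), and r fell to 0.59 without the 2 libraries farthest from the median of Cdh5. In sham (n = 8) r ran from 0.37 for Vwf to 0.62 for Pecam1, with exact permutation p of 0.368 and 0.102.

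The genes that deviated most like each of the other tested members from the group means over the 17 libraries were then named. For Icam2 these were Car8 (r = 0.85), Tspan13 (r = 0.84) and Car4 (r = 0.82), the last a carbonic anhydrase of capillary endothelium. Car4 had a median of 2 counts in the IZ, below the floor of 3. Icam2 was highest in IZ replicate 1 (51.3 CPM), the IZ library richest in cardiomyocyte transcripts, and these correlations were not examined without that library. For Icam1 they were Rai14 (r = 0.82), Gpihbp1 (r = 0.77), the capillary anchor of lipoprotein lipase, and Efnb1 (r = 0.77). For Pecam1 they were Slx1b, Cavin1 and Cask (r = 0.86 each), Cavin1 being a coat protein of caveolae. For Cdh5 they were Gm4070 (r = 0.84), Sh2d3c and Adamts9 (r = 0.81 each), and for Eng Adgrg1 (r = 0.90), Phldb1 and Ncaph2 (r = 0.86 each). Vwf went with Adamts7 (r = 0.85), Atf7 (r = 0.79) and Rsu1 (r = 0.78), and Plvap with Rnf213 (r = 0.82), Cyp20a1 (r = 0.81) and Ttll12 (r = 0.79). The points share library and depth, and these are descriptions without a test.

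Other genes of endothelial identity ranged from -1.90 to 1.18 on the log2 fold change scale. Of 24 further identity genes tested, 12 were called lower and 3 higher, with a median log2 fold change of -0.43. Under total counts, where most genes tested were called higher, the balance turned to 2 lower and 16 higher. Both VEGF receptor genes of the list fell: the log2 fold change was -1.90 for Flt1 and -1.70 for Kdr, with all 9 IZ libraries below all sham libraries and the same direction under total counts (edgeR adjusted p = 1.46e-09 and 2.59e-07). Tek, the angiopoietin receptor, fell by 0.87 under TMM but stood at 0.17 under total counts, while its relative Tie1 (-0.35, adjusted p = 0.12) and the ETS factor gene Erg (0.11, adjusted p = 0.568) did not pass. Acvrl1, whose product ALK1 partners endoglin, rose with a log2 fold change of 1.12, and Ecscr with 1.18, each in 9 of 9 IZ libraries above sham and under each scaling.

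Capillary genes were mostly lower, and genes listed for tip cells and angiogenesis were higher. Of 11 capillary genes, 10 were called lower (median -1.72), from Meox2 (-0.71) to Car4 (-4.03), and 6 were still called lower under total counts, where 2 were higher. All 8 cardiomyocyte markers were lower too, and the part of cardiomyocytes in the capillary differences was not tested. All 10 genes of the tip cell and angiogenic list were called higher (median 1.44), from Nid2 (0.74) to the chemokine receptor gene Cxcr4 (3.69), under each scaling. The list did not hold Dll4 (-0.99) or Kdr (-1.70), which are also linked to tip cells. Both were called lower under TMM, and under total counts Dll4 stood at 0.08 and Kdr at -0.68. Leukocytes also express Cxcr4, and fibroblasts or mural cells also express Nid2, Mcam, Col4a1 and Col4a2. The sum of 7 fibroblast markers ran from 1473 to 2871 CPM in sham and from 12285 to 20212 CPM in the IZ, and its part in these differences was not tested. Without IZ replicate 1, the IZ library richest in cardiomyocyte transcripts, 14 identity genes were called lower and 3 higher, 10 capillary genes were lower, and 9 of 9 tip cell genes that could be tested were higher. The set itself gave 2 higher and 1 lower without that library, with Plvap at 2.31, Icam1 at 1.17 and Vcam1 at -1.13. Arterial genes split into 4 higher and 2 lower of 8 and venous genes into 2 and 2 of 4, and these splits became 6 and 0, and 3 and 0, under total counts.

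Of 12 leukocyte counter-receptor genes with a feature of their own, 9 could be tested. All 9 were called higher (median 2.98) under each scaling, from Glg1 (0.32) to Itgax (3.55), with 7 of 8 called higher without IZ replicate 1 and 8 of 9 without sham replicate 4. Itgb2, the shared beta chain of the ICAM-1 receptors LFA-1 and Mac-1, rose from 5.93 ± 2.27 CPM to 67.6 ± 18.8 CPM (log2 fold change 3.47, edgeR adjusted p = 3.60e-11). Selplg, the ligand of the selectins, rose with 3.05, Itga4 with 2.45 and Itgb1 with 0.94, the last pair forming the VCAM-1 receptor VLA-4. The ranges of the 4 genes did not overlap between groups. Itgal was too sparse to test, with 3 counts at most in any sham library and up to 40 in an IZ library. Itgam was counted only as a feature merged with Gm49368, named after its values were seen, which rose from 5.42 ± 2.39 CPM to 41.1 ± 16.0 CPM.

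Of 13 genes of cytokine signalling and its targets, 11 were called higher and 0 lower (median 0.97), and 13 under total counts. Without IZ replicate 1, 8 of 10 were higher. Il1b rose with a log2 fold change of 2.93 and Traf1 with 3.04, whereas the NF-kappaB inhibitor gene Nfkbia stood at 0.15 (edgeR adjusted p = 0.425) and Tnf had at most 4 counts in a sham and 7 in an IZ library. Around endoglin, 5 of 9 TGF-beta and BMP signalling genes were higher and 1 lower, with Tgfbr1 at 1.95 and the BMP target gene Id1 at -1.14, and 8 were higher and 0 lower under total counts, where Id1 stood at -0.092. Among 5 tested genes of Weibel-Palade bodies other than Vwf and Selp, 4 were higher, led by Cd63 (2.17), which is also a general endosome protein. Of 12 junction genes 3 were higher and 6 lower, 9 and 0 under total counts, between Alcam (2.88) and the plakoglobin gene Jup (-1.28). Which cells gave the differences in junction genes was not tested.

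**Figure D5:**
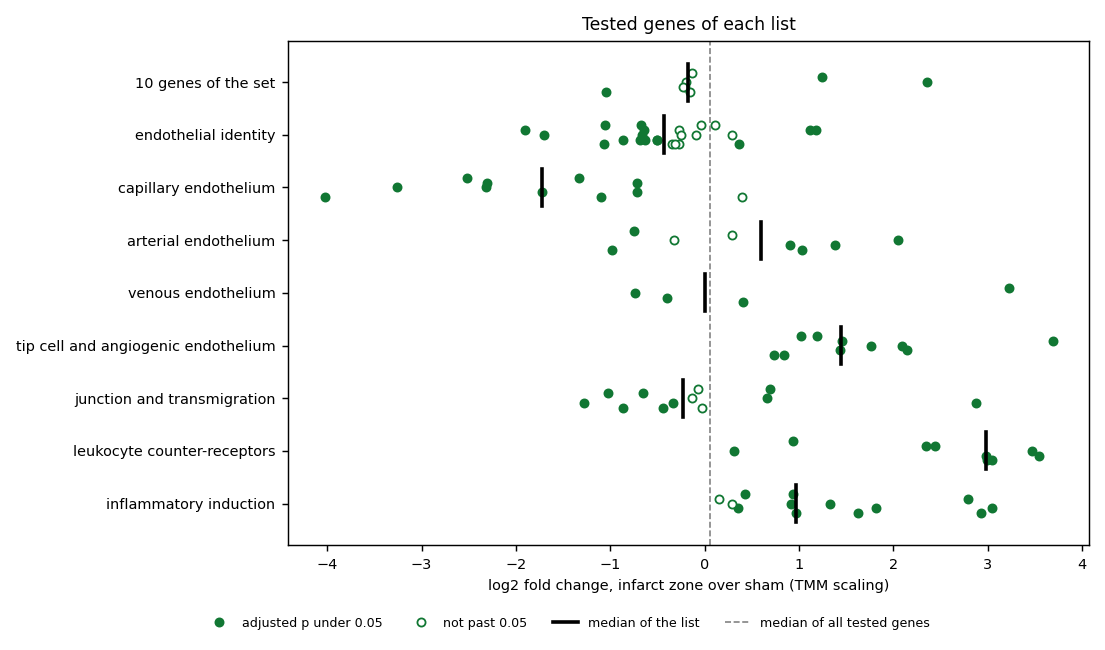
Log2 fold change (horizontal axis, TMM scaling) of each tested gene in the set and in 8 neighbouring lists, filled where the adjusted p was under 0.05, with list medians as black bars and the median of all genes (0.05) as a dashed line. Capillary genes lie to the left (median -1.72), tip cell genes (1.44) and leukocyte counter-receptors (2.98) to the right, while the medians of the set (-0.18), identity (-0.43) and junction genes (-0.23) turn positive under total counts alone.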

How the data were processed

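MACE libraries were prepared from DNase-treated total RNA of 8 sham left ventricles and 9 infarct zones. Per the study's methods, reads were trimmed with Cutadapt, mapped to mm10 and counted with HTSeq; the submitters' processing notes also name bcl2fastq, Bowtie2 and DESeq2. The values the authors deposited are raw counts per gene, with PCR duplicates removed through molecular identifiers and no normalization. The annotation release and the strand setting of the counting are not given in the sources used here. Positions and names were taken from GENCODE annotation of GRCm38, where 31521 of 31647 features matched, and 35 merged features (0.0919 to 0.215% of the counts) stayed in the library sizes.

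The test was that of edgeR 4.0.16 under R 4.3.3 (filterByExpr with a minimum of 10 counts, TMM factors 0.616 to 1.53, two-sided quasi-likelihood F-test without covariates, Benjamini-Hochberg adjustment, threshold 0.05). Log2 CPM used a prior count of 1. The genes and the 22 context lists were chosen with earlier results of these data known. Named genes were the 10 members, the highest and lowest called gene of each list, receptor partners and regulators, and for each tested member the 3 genes of at least 10 CPM with the most similar deviations. The result of 1 gene that met this rule is left out. Tried besides were scaling by the upper quartile, by size factors of DESeq2 or by total counts alone, the DESeq2 Wald test (the kind of test the study used, here in version 1.42.0), no filter, only genes averaging 50 counts or more, libraries thinned to the smallest one, mitochondrial features removed, a replicate block, and each library left out. No 2 libraries were copies (chi-square per degree of freedom at least 2.22). Near-identical 3′ ends were searched with BLAST 2.17.0 (last 500 bases, at least 100 bases at 95% identity), which found the overlapping antisense genes of Icam1 and Selp. The procedure was tested on simulated data. Depth sets a floor of 3 counts per library, and intervals cover counting error only. Python 3.11.15, NumPy 2.4.6, pandas 2.3.3, SciPy 1.17.1 and Matplotlib 3.10.9 were used.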

Additional observations from a re-analysis of the deposited data

Results flagged for a closer look

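Values that stood apart from the rest of their group were sought by the gap to the nearest library relative to the group's range, in 22 groups of values, where chance sets apart about 1 in 20. The highest Sele level in sham, 1.46 CPM in replicate 6, stood apart, and it rested on 2 counts. The share of mitochondrially encoded counts in IZ replicate 1, 19.5%, stood apart from the other 8 IZ libraries at 4.22 to 6.78%. The same library had the highest cardiomyocyte marker sum of the IZ, and the calls for the set without it are given above.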

How the results depend on the processing

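Over 25 of the 26 alternatives, Plvap (2.21 to 2.50), Icam1 (1.12 to 1.36) and Vcam1 (-1.23 to -0.84) kept their direction and call, and Pecam1, Cdh5, Eng, Icam2 and Vwf were never called. The exception was scaling by total counts alone, with 7 members called higher and 0 lower. There the log2 fold changes were 0.91 for Pecam1, 0.87 for Cdh5, 0.86 for Eng, 0.91 for Icam2, 0.84 for Vwf and 0.030 for Vcam1. On that scale 10710 of the 12301 genes tested were called, 85.7% of them higher. It leaves out the TMM factors, which ran from 0.616 to 0.729 in sham and from 1.05 to 1.53 in the IZ. Leaving out each library in turn moved Vcam1 between -1.23 (without sham replicate 4) and -0.88 (without sham replicate 7). The count of all genes called was 8544, and 5239 with a mean of at least 50 counts, where 6734 were tested. With the replicate number as a block, 7884 genes were called and the members' calls did not change; the mice of a number differ, and the correlations of same-numbered libraries ran from -0.22 to 0.13, so the numbers do not pair. The relation of Icam1 to Cdh5 in the IZ passed only with total-count CPM (r = 0.81, adjusted p = 0.0284). Depth limits Sele and Selp, which pass the filter in few settings.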

Other observations

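Other vessel types and the cells around them moved as well. In arterial genes the elastic fibre gene Fbln5 was the highest called (log2 fold change 2.05) and the Notch ligand gene Dll4 the lowest (-0.99, but 0.08 under total counts). Among venous genes these were the cytokine receptor gene Csf2rb (3.23), which myeloid cells also express, and Lrg1 (-0.74, but 0.33 under total counts). Of 5 lymphatic genes 3 were lower and 1 higher, with Prox1 at -2.81, a gene that cardiomyocytes also express, and Pdpn at 3.34, which fibroblasts also express, and under total counts 1 was lower and 2 higher. Of 4 endocardial genes 2 were higher and 2 lower, between Cytl1 (-4.66) and Smoc1 (1.05), and under total counts 2 were higher and 1 lower. Of 4 genes that build selectin ligands on leukocytes 2 were higher and 1 lower, with the branching enzyme gene Gcnt1 at 2.26 and the sialyltransferase gene St3gal6 at -1.55. Among mural genes 4 of 8 were lower and 2 higher, and under total counts 2 were lower and 4 higher. They lay between Abcc9 (-2.72) and Acta2 (2.28), which myofibroblasts also express. The part of cardiomyocytes in the level of Abcc9 was not tested. Neutrophil markers were higher for all 4 tested, fibroblast markers for 6 of 7, cell cycle genes for 8 of 8 and mesothelial markers for 1 of 2, cardiomyocyte markers were lower for 8 of 8, and no lymphocyte marker passed the filter. The calls are by edgeR's quasi-likelihood test at an adjusted p of 0.05.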
